A study of Mus musculus with 12 samples.

Results

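Olfactomedin genes were described in colon and urinary bladder of mice that had lost YAP and TAZ in smooth muscle. The genes were chosen by name with earlier results of these data known, and the 7 genes *Olfml1*, *Olfml2a*, *Olfml2b*, *Olfml3*, *Olfm1*, *Olfm2*, and *Olfm4* were found among 54532 genes in each of 12 libraries. Their levels and the differences between groups are therefore a description, and the adjusted p-values, taken over all genes tested, are not independent evidence. RNA came from 9 male mice aged 5 to 7 weeks, with 3 libraries in each of the groups Ctrl colon (mice 788, 786, and 787), Y/T KO colon (759, 783, and 780), Ctrl bladder (784, 785, and 788), and Y/T KO bladder (782, 783, and 780). Each library came from 1 mouse, and 3 mice (788, 783, and 780) gave both tissues. All mice carried floxed *Yap1* and *Wwtr1* (the gene of TAZ) and received 1 mg tamoxifen per day in 5 injections, with tissue taken on day 7 after the first injection. Y/T KO mice also carried Myh11-CreERT2, a tamoxifen-activated recombinase driven by a smooth muscle promoter, which Ctrl mice lacked. The distal colon and the bladder were homogenized whole, so mucosa, nerves, fat, and connective tissue were measured together with muscle, and fewer cells of a type cannot be told apart from less RNA per cell.

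The olfactomedin domain is a propeller-shaped fold found mostly in secreted glycoproteins that bind matrix molecules, growth factors, or receptors at the cell surface. Several family members are made by connective tissue cells and enter the extracellular matrix, and others are made by neurons and act on axons and synapses. The family also includes myocilin (*Myoc*), known from the outflow tract of the eye and from glaucoma, gliomedin (*Gldn*), which organizes nodes of Ranvier in peripheral nerve, and the latrophilins (*Adgrl1*, *Adgrl2*, and *Adgrl3*), adhesion receptors that bind teneurins and FLRT proteins.

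Levels in single libraries are the deposited TPM (a gene's share of the library's transcripts, already divided by transcript length), and libraries are given in the order of mice above. Means with SD are TPM rescaled by a size factor of each library within its tissue. Differences are on the log2(TPM + 0.1) scale with their standard error (SE), from limma fits over 17490 genes in colon, 18229 in bladder, and 19717 in all 12 libraries together, with a Benjamini-Hochberg adjusted p under 0.05 as the threshold. In each fit 6 of the 7 genes passed the filter on low values, and *Olfm4* did not. For a single gene and groups of 3, the smallest two-sided p of an exact permutation test is 0.1. Aligned sequence ran from 2.80 to 3.94 gigabases per library. The tissue labels matched the markers, since 6 urothelial markers summed to 4449 to 5925 TPM in bladder and 27.3 to 40.1 TPM in colon, and 8 colon epithelial markers summed to 6509 to 8662 TPM in colon and 820.0 to 926 TPM in bladder, where *Muc2* and *Cdx2* were listed at 0. The summed TPM of 8 smooth muscle markers was 7514 to 8261 in Ctrl colon and 4936 to 5808 in Y/T KO colon. In bladder it was 35078 to 45673 in Ctrl and 16706 to 30693 in Y/T KO mice. Of the 8 markers 0 passed the test in either tissue, against 0.137% of all genes in colon and 0.302% in bladder. In each tissue 5 of 8 had an unadjusted p under 0.05 in limma, against 9.73% of all genes in colon and 14.8% in bladder. Of the floxed genes, *Yap1* was lower in every Y/T KO bladder library than in every Ctrl bladder library (log2 difference -0.54, SE 0.08, limma adjusted p = 0.0624), overlapped between genotypes in colon (-0.17, SE 0.14, adjusted p = 0.698), and *Wwtr1* overlapped in both tissues (0.18, SE 0.16 in colon and 0.24, SE 0.24 in bladder).

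In Ctrl mice every one of the 6 tested genes was lower in colon than in bladder, and 1 of them passed the test between genotypes in colon. *Olfml3* rose in Y/T KO colon by 2.50 on the log2 scale, to 18.5 to 25.1 TPM. These values lay above Ctrl bladder 784 (16.3 TPM) and below the other Ctrl bladders (43.7 and 53.7 TPM). None of the 6 genes passed the test between genotypes in bladder. Among all genes, 0.137% passed between genotypes in colon, in either direction, against 1 of 6 olfactomedin genes, and 0.302% passed in bladder, against 0 of 6. An unadjusted p under 0.05 in limma was found for 2 of the 6 in colon (*Olfml3* and *Olfm1*), against 9.73% of all genes, and for 1 of the 6 in bladder (*Olfm1*), against 14.8% of all genes. The plot of TPM by library shows the 6 genes in all groups.

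**Figure D1:**
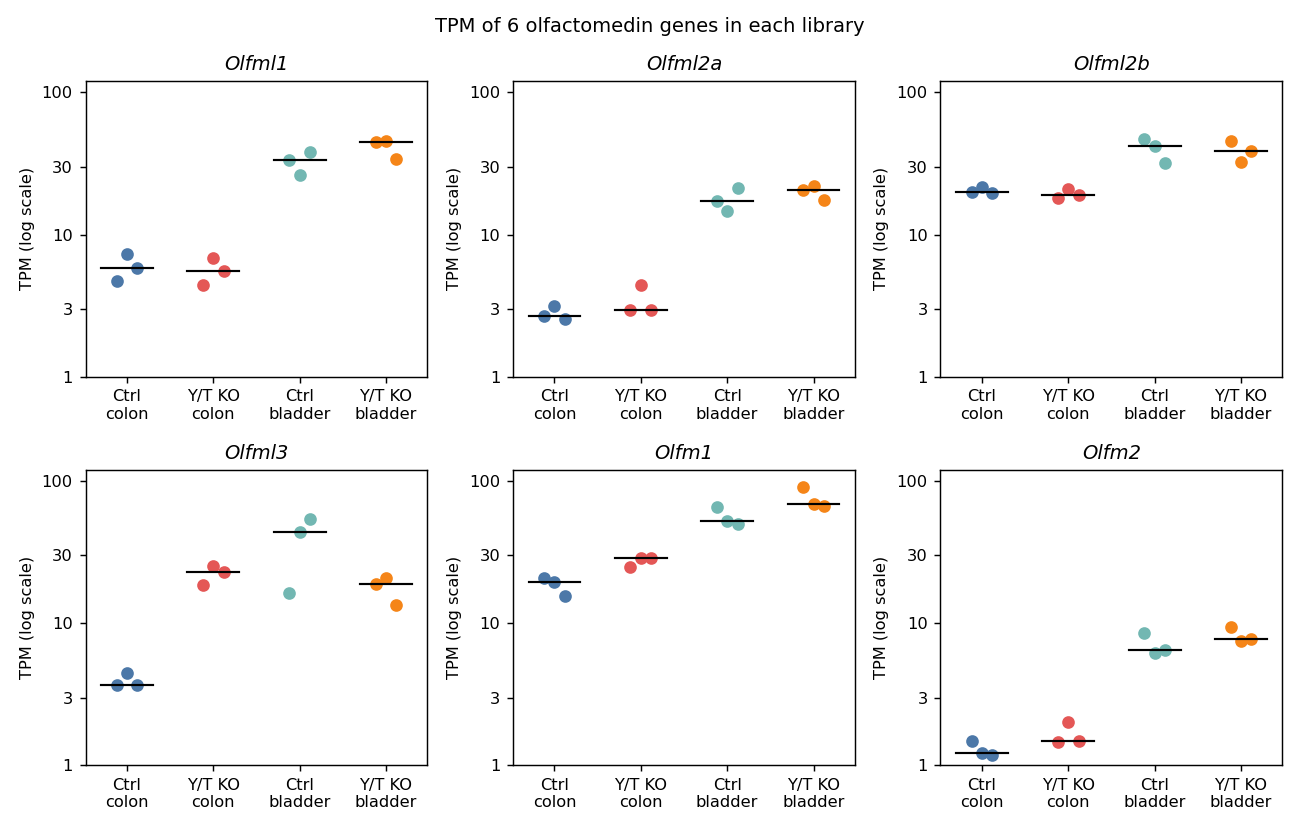
TPM of each of 6 olfactomedin genes (vertical axis, log scale) in the 4 groups (horizontal axis). Each point is 1 library and the bar is the median of 3 libraries. *Olfml3* sits between 3.65 and 4.46 TPM in Ctrl colon and between 18.5 and 25.1 TPM in Y/T KO colon, and the Ctrl bladder library at 16.3 TPM lies within the range of Y/T KO bladder.

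*Olfml3* encodes a secreted glycoprotein that binds BMP4 and, in frog embryos, acts as a scaffold between chordin and the proteases that cleave it. The gene lies on the minus strand of chromosome 3 of GRCm38, from 103722222 to 103738001. The Ctrl colons had 3.65, 4.46, and 3.68 TPM, and the Y/T KO colons had 18.5, 25.1, and 22.9 TPM. The lowest Y/T KO colon library was thus far above the highest Ctrl colon library. Rescaled means were 3.84 ± 0.178 TPM in Ctrl colon and 22.3 ± 3.36 TPM in Y/T KO colon (SD, n = 3 libraries each), a log2 difference of 2.50 (SE 0.18, 95% interval 2.07 to 2.92, limma adjusted p = 0.00461). Non-overlapping groups were found for 3 of the 6 genes in colon, all higher in Y/T KO (*Olfml3*, *Olfm1*, and *Olfml2a*), while 8.23% of all genes tested were higher and 7.86% lower without overlap. The non-overlap is read on rescaled TPM, and on TPM as deposited *Olfml2a* overlapped.

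Marker lists of other cell types were read beside the rise of *Olfml3* in colon, as summed TPM in Ctrl and Y/T KO. Macrophage markers (5 genes) ran from 309 to 429 and from 410 to 611, endothelial markers (6 genes) from 71.2 to 94.7 and from 79.5 to 94.1, mesothelial markers (4 genes) from 34.5 to 44.4 and from 27.6 to 61.9, and neutrophil markers (8 genes, *Elane* at 0) from 135 to 192 and from 113 to 330, all overlapping on deposited TPM. For macrophage markers only Ctrl colon 786 (429) and Y/T KO colon 759 (410) overlapped. Their size factors were 1.11 and 1.00, and after rescaling the macrophage groups were apart, higher in Y/T KO. Epithelial markers (8 genes) ran from 6695 to 8662 and from 6509 to 7461, and adipocyte markers (4 genes) from 117 to 232 and from 121 to 140, also overlapping. Glial markers (6 genes, *Foxd3* at 0) were just apart, from 11.9 to 14.2 and from 14.3 to 18.6. Pancreatic enzyme genes (6 genes) ran from 520 to 808 and from 617 to 771, overlapping. Of these 6, *Cpa1* and *Prss2* were at 0 in all Y/T KO colons and above 0 among the Ctrl colons. The part of these markers in the *Olfml3* values was not tested.

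For *Olfml3* the Ctrl bladders had 16.3, 43.7, and 53.7 TPM, and the Y/T KO bladders had 18.7, 20.7, and 13.4 TPM. Both higher Ctrl values exceeded every Y/T KO value, whereas Ctrl mouse 784 lay within the Y/T KO range. The log2 difference was -0.96 (SE 0.44, 95% interval -2.02 to 0.10, limma adjusted p = 0.375). Without Ctrl bladder 784, a setting read after its value was seen, the difference was -1.46 (SE 0.22, adjusted p = 0.129). The same library had the lowest *Wwtr1* of the Ctrl bladders (32.5 against 61.6 and 53.3 TPM), the lowest sum of smooth muscle markers (35078 against 45673 and 42266 TPM), the lowest sum of 9 fibroblast markers (10272 against 11324 and 12712 TPM), and the highest sum of 4 adipocyte markers (2340 against 1662 and 1494 TPM). It also had the lowest sums of neutrophil markers (50.9 against 174 and 138 TPM) and macrophage markers (766 against 1043 and 1049 TPM), and the highest sums of glial markers (89.7 against 53.3 and 44.7 TPM) and neuronal markers (526 against 441 and 345 TPM). The part of these differences in the low *Olfml3* value was not tested.

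The genotype difference of *Olfml3* in colon exceeded that in bladder by 3.44 on the log2 scale (SE 0.50, 95% interval 2.35 to 4.53, limma interaction adjusted p = 0.0424), and 0.0609% of all genes passed this test. The other 5 genes did not, with interaction estimates from -0.43 for *Olfml1* to 0.15 for *Olfm1*. The interaction call lies close to the threshold. Its adjusted p was 0.0510 on TPM as deposited, 0.0564 without the filter on low values, and 0.0549 without limma's trend and robust options. With 1 library left out, the call held without Ctrl bladder 784 (3.94, adjusted p = 0.000287) and without Y/T KO colon 759 (3.55, adjusted p = 0.0405), and it was lost without any of the other 10 libraries (3.12 to 3.60, adjusted p from 0.062 to 0.148).

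*Olfml3* was also the gene whose tissue order differed between genotypes. In Ctrl mice it was lower in colon than in bladder by a log2 difference of -2.82 (SE 0.35, limma adjusted p = 4.46e-05). In Y/T KO mice the colon libraries stood at 18.5 to 25.1 TPM and the bladder libraries at 13.4 to 20.7 TPM, overlapping on deposited TPM and apart after rescaling, with a log2 difference of 0.62 (SE 0.35, adjusted p = 0.162). Without Ctrl bladder 784, which enters the shared estimate of the spread, the same difference of 0.62 had an SE of 0.19 and an adjusted p of 0.0206.

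Set against *Olfml2b*, a relative measured in the same libraries at a steady level in colon, the TPM ratio of *Olfml3* to *Olfml2b* was 0.184, 0.208, and 0.188 in Ctrl colon and 1.02, 1.21, and 1.21 in Y/T KO colon. In bladder the ratio was 0.346, 1.04, and 1.68 in Ctrl mice and 0.412, 0.640, and 0.345 in Y/T KO mice. The ratio separated the genotypes in colon and did not in bladder. The steady level of *Olfml2b* in colon was read from these same data. The ratio there thus repeats the levels of *Olfml3* and is not separate support.

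For *Olfml3*, 4 transcript forms are annotated, of which the longest (5465 bases, 3 exons) codes for the whole protein of 406 residues. The mean transcript length implied by the ratio of coverage to FPKM, which weights each form by its abundance, was 4319 to 4373 bases in Ctrl colon and 4423 to 4475 bases in Y/T KO colon. In bladder it was 4588 to 4767 bases in Ctrl mice and 4430 to 4523 bases in Y/T KO mice. The implied lengths lay in all 12 libraries between the full-length form and the next longest, a form of 3981 bases with a retained intron. They did not overlap between genotypes, being longer in Y/T KO in colon and shorter in Y/T KO in bladder, and this difference was not tested. The share of all genes whose implied lengths do not overlap was not taken. Implied lengths of *Olfm1* and *Olfm2* overlapped between genotypes in both tissues.

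TEAD factors are the DNA-binding partners through which YAP and TAZ act on genes, and the bases CATTCC are the core of the motif they recognize. The promoter windows of RefSeq on GRCm38.p6 (250 bases before the start of the gene and 50 after) were matched for 7 of 7 genes, with 10 windows in all, and the CATTCC motif was searched on both strands. It was found in 1 of the 10 windows, that of *Olfml3*, where its first base lies 64 bases before the start site, and it is held by 14.7% of the 32851 promoters in the table. GC boxes (GGGCGG, either strand) were found in 7 of 10 windows against 35.7% of all promoters. The windows of the 7 genes held none of the AP-1 motif TGACTCA (5.20% of all promoters), the SMAD motif GTCTAGAC (0.213%), and the CArG box bound by SRF (1.63%), and 1 of 10 held TATAAA (13.6%). Overlapping matches of a motif were counted, and in the windows printed here the only overlap is that of a pair of GC boxes of *Olfml3*, which share a base. The windows of *Olfml3*, of *Olfml1*, and of *Olfml2a* are shown, the last pair because their levels ran together across libraries, with every motif found in capitals (CATTCC, or a GC box on either strand).
Olfml3 (chr3:103737952-103738251, minus strand): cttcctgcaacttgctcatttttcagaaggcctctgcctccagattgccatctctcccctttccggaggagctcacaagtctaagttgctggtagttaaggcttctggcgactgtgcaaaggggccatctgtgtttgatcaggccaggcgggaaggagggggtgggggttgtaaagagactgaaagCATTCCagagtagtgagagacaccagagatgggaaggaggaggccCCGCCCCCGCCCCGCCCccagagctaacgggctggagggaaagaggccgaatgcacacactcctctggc
Olfml1 (chr7:107567183-107567482, plus strand): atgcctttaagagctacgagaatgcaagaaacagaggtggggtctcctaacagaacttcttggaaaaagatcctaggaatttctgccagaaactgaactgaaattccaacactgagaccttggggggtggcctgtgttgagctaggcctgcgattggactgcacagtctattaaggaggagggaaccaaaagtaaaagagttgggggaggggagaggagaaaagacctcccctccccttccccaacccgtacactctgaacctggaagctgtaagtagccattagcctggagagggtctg
Olfml2a (chr2:38931730-38932029, plus strand): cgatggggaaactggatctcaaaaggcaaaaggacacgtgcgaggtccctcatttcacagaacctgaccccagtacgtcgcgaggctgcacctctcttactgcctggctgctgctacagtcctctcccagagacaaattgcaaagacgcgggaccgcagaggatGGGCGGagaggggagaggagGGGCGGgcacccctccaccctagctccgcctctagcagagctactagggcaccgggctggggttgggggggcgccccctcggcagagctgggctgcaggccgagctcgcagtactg

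The *Olfml3* window holds the CATTCC and, between it and the start site, 3 GC boxes on the reverse strand in 1 run of capitals. The *Olfml2a* window holds a pair of GC boxes on the forward strand, and the *Olfml1* window holds no searched motif. A match is a run of letters and not a measured binding site.

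*Olfml1*, *Olfml2a*, and *Olfml2b* encode secreted proteins of the olfactomedin-like branch, and the products of *Olfml2a* and *Olfml2b*, also called photomedins, bind chondroitin sulfate in the matrix. For *Olfml1* the Ctrl colons had 4.74, 7.29, and 5.78 TPM and the Y/T KO colons 4.40, 6.80, and 5.57 TPM. The Ctrl bladders had 33.3, 26.1, and 37.9 TPM and the Y/T KO bladders 44.5, 45.7, and 34.0 TPM. The genotypes overlapped in both tissues, with log2 differences of -0.05 (SE 0.24, 95% interval -0.60 to 0.50, limma adjusted p = 0.958) in colon and 0.35 (SE 0.18, 95% interval -0.07 to 0.78, adjusted p = 0.405) in bladder. The tissues were far apart, with *Olfml1* lower in colon by log2 differences of -2.18 (SE 0.21, adjusted p = 5.81e-06) in Ctrl and -2.60 (SE 0.21, adjusted p = 1.37e-06) in Y/T KO mice.

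*Olfml2a* was measured at 2.66, 3.13, and 2.55 TPM in the Ctrl colons and 2.93, 4.44, and 2.95 TPM in the Y/T KO colons. Its bladder levels were 17.1, 14.5, and 21.4 TPM in the Ctrl bladders and 20.7, 21.8, and 17.6 TPM in the Y/T KO bladders. The highest Ctrl colon value, from mouse 786, exceeded both lower Y/T KO colon values, and the bladder groups overlapped. Differences between genotypes were 0.31 (SE 0.25, limma adjusted p = 0.698) in colon and 0.19 (SE 0.17, adjusted p = 0.631) in bladder.

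*Olfml2a* ran with *Olfml1* across libraries, as the plot of gene pairs shows. The TPM ratio of *Olfml1* to *Olfml2a* stayed between 1.50 and 2.33 in all 12 libraries, although both genes differed several-fold between tissues. Their Pearson correlation on the log2 scale was 0.99 over 12 libraries, and 0.83 after the group means were removed. The points share library, tissue, and depth, and in 3 cases the mouse, so the correlation is a description.

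**Figure D2:**
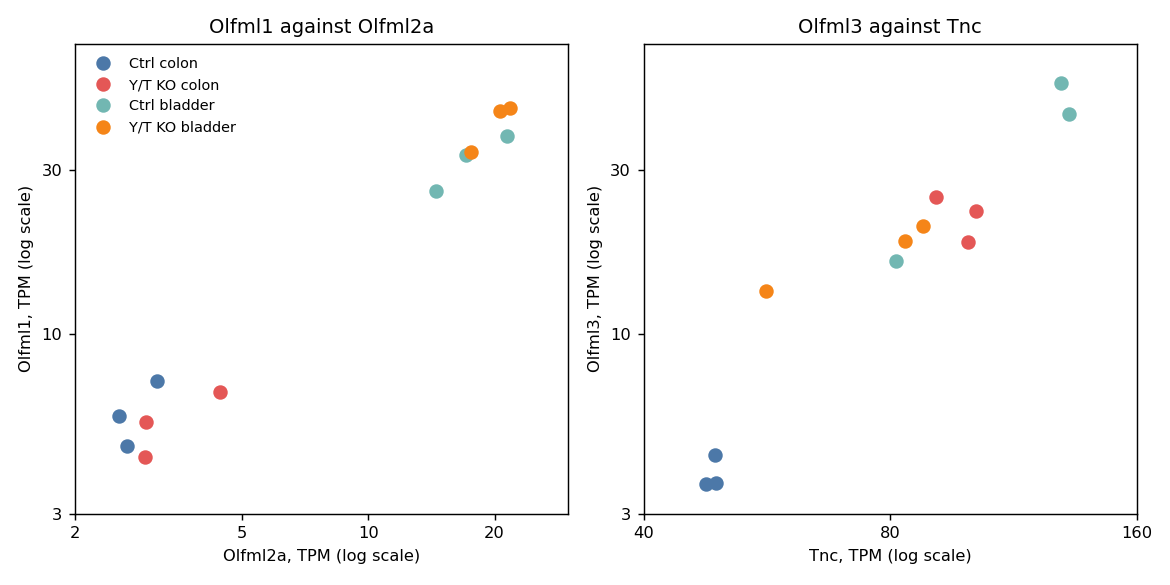
TPM of *Olfml1* against *Olfml2a* (left) and of *Olfml3* against *Tnc* (right), both axes on log scales, with 1 point for each of 12 libraries coloured by group. On the left the colon libraries sit at low and the bladder libraries at high values of both genes, with Pearson r of 0.99. On the right the 3 Ctrl colon libraries form the low end and 2 Ctrl bladder libraries the high end, and Y/T KO colon lies beside Y/T KO bladder and Ctrl bladder 784.

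*Olfml2b* had the smallest estimates of the 6 genes between genotypes in both tissues. Its levels were 19.9, 21.5, and 19.6 TPM in the Ctrl colons and 18.1, 20.7, and 18.9 TPM in the Y/T KO colons. They were 47.1, 42.2, and 32.0 TPM in the Ctrl bladders and 45.4, 32.3, and 38.7 TPM in the Y/T KO bladders. The groups overlapped in both tissues. The log2 difference was -0.04 (SE 0.14, 95% interval -0.37 to 0.28, limma adjusted p = 0.938) in colon and -0.05 (SE 0.19, 95% interval -0.50 to 0.39, adjusted p = 0.915) in bladder. Its difference between tissues was the smallest of the 6 genes in Ctrl mice, with colon lower by a log2 difference of -0.71 (SE 0.16, adjusted p = 0.00307) and, in Y/T KO mice, of -0.72 (SE 0.16, adjusted p = 0.00278).

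The noelins *Olfm1* and *Olfm2* are best known from the nervous system, where noelin-1 binds Nogo and AMPA-type glutamate receptor complexes, and *Olfm2* has also been linked to the differentiation of smooth muscle cells. For *Olfm1* the Ctrl colons had 20.6, 19.4, and 15.6 TPM and the Y/T KO colons 24.7, 28.7, and 28.5 TPM, and every Y/T KO value lay above every Ctrl value. Rescaled means were 18.2 ± 2.38 and 27.5 ± 2.38 TPM (SD, n = 3 each), a log2 difference of 0.60 (SE 0.16, 95% interval 0.23 to 0.97) that did not pass the test over all genes (limma adjusted p = 0.362).

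The *Olfm1* levels were 65.4, 52.6, and 49.9 TPM in the Ctrl bladders and 91.0, 68.4, and 67.0 TPM in the Y/T KO bladders. On deposited TPM the groups were just apart, with the highest Ctrl value at 65.4 and the lowest Y/T KO value at 67.0, and after rescaling they overlapped. Rescaled, 0 of 6 genes had non-overlapping groups in bladder, while 10.6% of all genes were higher and 11.4% lower without overlap. The log2 difference was 0.43 (SE 0.16, 95% interval 0.04 to 0.81, limma adjusted p = 0.299), and it differed from that in colon by an interaction of 0.15 (SE 0.22, adjusted p = 0.815).

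In both tissues the estimates of *Olfm1* thus leaned to Y/T KO, and neither passed. The summed TPM of 9 neuronal markers was 58.2 to 73.7 in Ctrl colon and 46.2 to 63.2 in Y/T KO colon, and 345 to 526 in Ctrl bladder and 483 to 606 in Y/T KO bladder, overlapping in both tissues. It was lower at the median in Y/T KO colon, where *Olfm1* was higher, and higher at the median in Y/T KO bladder. The sum of 6 glial markers was just apart in colon. It was 11.9 to 14.2 TPM in Ctrl colon and 14.3 to 18.6 TPM in Y/T KO colon. In bladder it overlapped, at 44.7 to 89.7 TPM in Ctrl and 67.8 to 78.8 TPM in Y/T KO. The glial sum was higher at the median in Y/T KO in both tissues, as *Olfm1* was. Other marker lists were not set against *Olfm1*. The part of neuronal and glial markers in the *Olfm1* values was not tested.

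The forms of *Olfm1* differ in length and in protein. The 3 long forms (2513 to 2757 bases, 6 exons) code for 442 to 485 residues and include the olfactomedin domain. A short form of 1072 bases and 4 exons codes for 153 residues and ends before the exons of that domain, and another of 1102 bases has no annotated coding region. The mean transcript length implied by coverage and FPKM lay between 1323 and 1455 bases in all 12 libraries, much closer to the short forms than to the long ones, as the plot of lengths shows. By group it was 1384 ± 63.9 bases in Ctrl colon, 1349 ± 11.2 in Y/T KO colon, 1351 ± 34.6 in Ctrl bladder, and 1355 ± 37.5 in Y/T KO bladder (SD, n = 3 each), without separation of tissues or genotypes. As a check of this measure, 99.97% of values of genes with a single transcript equalled the library's usual ratio, and 93.4% of values of genes with several transcripts lay within the lengths of their forms, both within 1%. The *Olfm1* TPM above therefore counts mainly short transcripts.

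**Figure D3:**
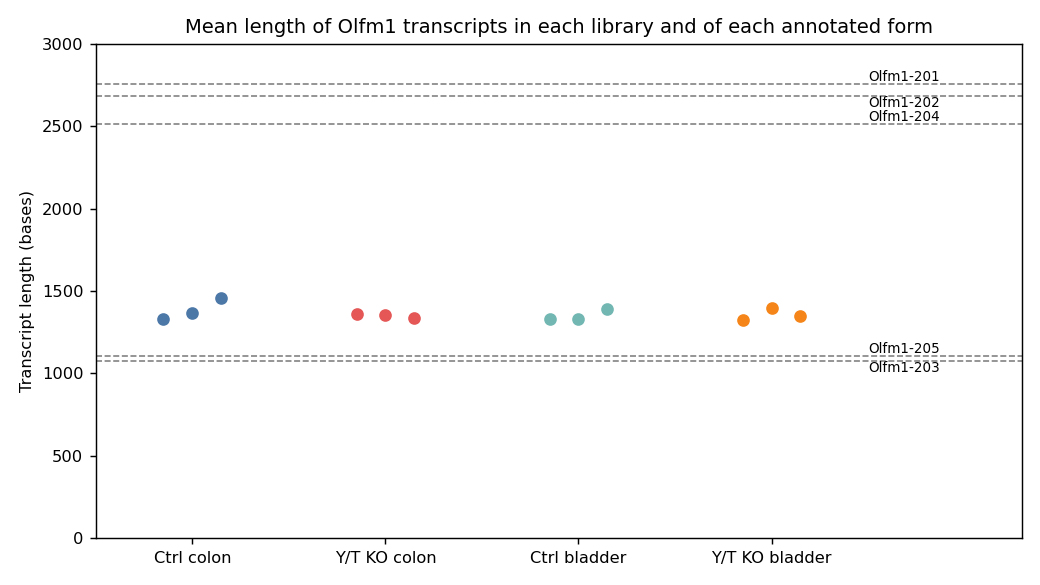
Mean length of *Olfm1* transcripts in bases (vertical axis, from 0) implied by the ratio of coverage to FPKM in each library, by group (horizontal axis). Points are single libraries and dashed lines are the annotated forms. All 12 libraries lie between 1323 and 1455 bases, above the short forms at 1072 and 1102 bases and below the long forms at 2513 to 2757 bases.

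*Olfm2* was the lowest of the 6 genes in every group. The Ctrl colons had 1.48, 1.22, and 1.18 TPM and the Y/T KO colons 1.45, 2.01, and 1.48 TPM. The Ctrl bladders had 8.47, 6.21, and 6.48 TPM and the Y/T KO bladders 9.46, 7.52, and 7.72 TPM. The genotypes overlapped in both tissues, with log2 differences of 0.35 (SE 0.29, limma adjusted p = 0.704) in colon and 0.22 (SE 0.18, adjusted p = 0.606) in bladder. The lower level in colon held in both genotypes, with log2 differences of -2.10 (SE 0.22, adjusted p = 1.05e-05) in Ctrl and -2.00 (SE 0.22, adjusted p = 1.60e-05) in Y/T KO mice.

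*Olfm4* marks stem cells at the crypt base of the small intestine and is a granule protein of a subset of neutrophils. It was listed at 0 TPM in 7 of the 12 libraries and at most at 0.216 TPM in the others, the highest being a Ctrl bladder. In colon it was above 0 in Ctrl mouse 786 (0.0587 TPM) and in Y/T KO mouse 780 (0.189 TPM) alone, and it was not tested. Markers of the crypt base and of mucosal defence were measured in the same colon libraries, *Lgr5* at 3.41 to 7.87 TPM and *Smoc2* at 54.9 to 86.5 TPM. Neither was particular to colon, since the bladder libraries had 2.77 to 9.83 TPM of *Lgr5* and 159 to 245 TPM of *Smoc2*. *Ascl2*, also listed, had 2.76 to 14.8 TPM in colon and 1.23 to 1.65 TPM in bladder. Of the 12 listed crypt and defence genes 9 were tested in colon and 0 passed, against 0.137% of all genes. An unadjusted p under 0.05 in limma was found for 2 of the 9, against 9.73% of all genes. They were *Smoc2* (0.61, SE 0.13, limma adjusted p = 0.237) and *Duoxa2* (1.86, SE 0.73, adjusted p = 0.501). For *Duoxa2* the Y/T KO colons had 14.8, 25.2, and 98.6 TPM, so that mouse 780 stood far above the others. In bladder 9 of the 12 were tested and 0 passed, against 0.302% of all genes. An unadjusted p under 0.05 in limma was found for 0 of these 9, against 14.8% of all genes.

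Between tissues, 6 of 6 genes passed the test as lower in colon than in bladder in Ctrl mice, as did 25.2% of all genes tested. In Y/T KO mice 5 of 6 passed in that direction, as did 25.5% of all genes. The median log2 difference of the 6 genes was -2.14 in Ctrl and -1.59 in Y/T KO mice, against 0.02 and 0.01 over all genes tested. The largest difference in Ctrl was that of *Olfml3* and the largest in Y/T KO was that of *Olfml1*. *Olfml2a* differed by -2.36 (SE 0.20, limma adjusted p = 2.03e-06) in Ctrl and -2.26 (SE 0.20, adjusted p = 2.95e-06) in Y/T KO mice, and *Olfm1* by -1.33 (SE 0.16, adjusted p = 3.26e-05) and -1.18 (SE 0.16, adjusted p = 8.17e-05). Fibroblast markers summed to 2265 to 2947 TPM in Ctrl colon and 10272 to 12712 TPM in Ctrl bladder, with 8 of 9 lower in colon by the same test. Smooth muscle markers, given above, were lower in colon for 8 of 8. In Ctrl mice the sums of other markers were also lower in colon than in bladder without overlap, with adipocyte markers at 117 to 232 against 1494 to 2340 TPM, neuronal markers at 58.2 to 73.7 against 345 to 526 TPM, glial markers at 11.9 to 14.2 against 44.7 to 89.7 TPM, endothelial markers at 71.2 to 94.7 against 211 to 234 TPM, mesothelial markers at 34.5 to 44.4 against 270 to 450.0 TPM, and macrophage markers at 309 to 429 against 766 to 1049 TPM. Markers of these cell types thus moved with the tissue difference of the olfactomedin genes, and their part in it was not tested. Other lists did not. Neutrophil markers overlapped, at 135 to 192 TPM in Ctrl colon and 50.9 to 174 TPM in Ctrl bladder, with the higher median in colon. Colon epithelial markers, given above, and pancreatic enzyme genes (520 to 808 against 70.2 to 132 TPM) were higher in Ctrl colon. Between genotypes in colon, the sums of fibroblast markers overlapped (2565 to 3208 TPM in Y/T KO). Of the 9 markers 7 had a higher and 2 a lower estimate in Y/T KO colon, against 8900 and 8590 of 17490 genes. Of the 9, 0 passed, against 0.137% of all genes. An unadjusted p under 0.05 in limma was found for 1 of them (*Col1a2*), against 9.73% of all genes. The part of fibroblast markers in the *Olfml3* values of colon was not tested.

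**Figure D4:**
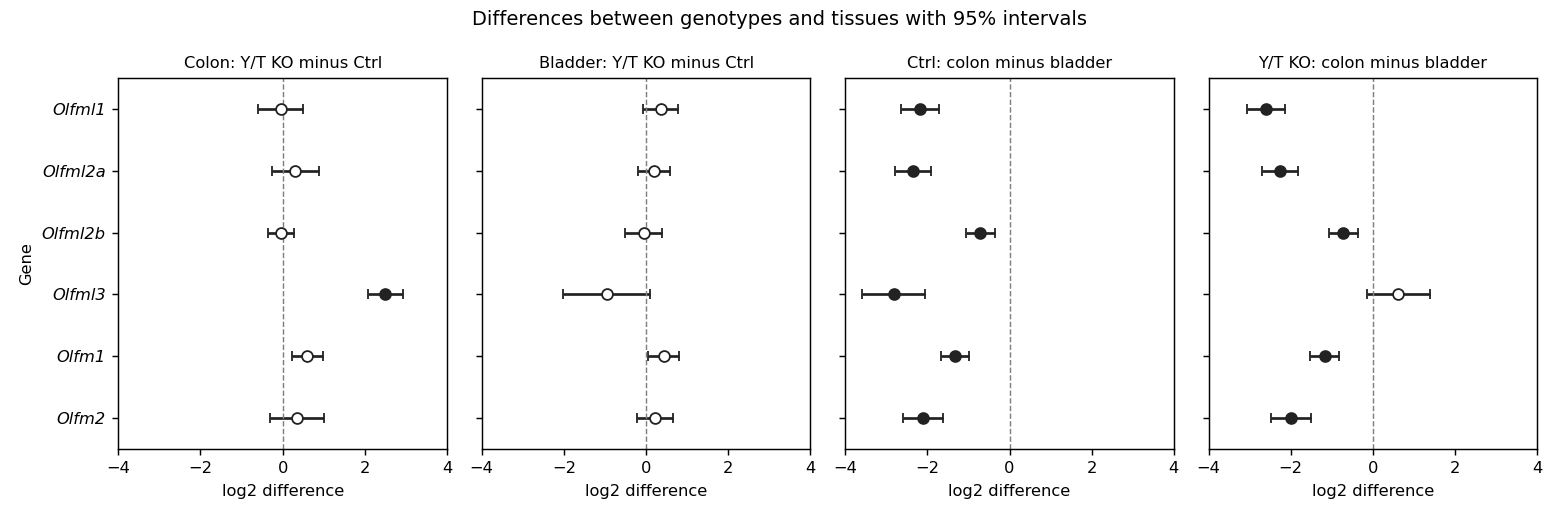
Log2 differences (horizontal axis, on the log2(TPM + 0.1) scale) of the 6 tested genes (vertical axis) between genotypes in colon and bladder and between tissues in Ctrl and Y/T KO mice, with 95% intervals. Filled points have an adjusted p under 0.05 and open points do not. In the genotype panels *Olfml3* in colon, at 2.50, is the only filled point, and in the tissue panels *Olfml3* in Y/T KO, at 0.62, is the only open one.

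The order of levels within a group differed between groups, with *Olfml3* and *Olfml1* changing place. In Ctrl colon *Olfml2b* and *Olfm1* were highest and overlapped, followed by *Olfml1*, *Olfml3*, *Olfml2a*, *Olfm2*, and *Olfm4*, each apart from the next. In Y/T KO colon *Olfm1*, *Olfml3*, and *Olfml2b* led, each overlapping the next, so that *Olfml3* had left the low group. In Ctrl bladder *Olfm1*, *Olfml3*, *Olfml2b*, and *Olfml1* led, each overlapping the next in rank. In Y/T KO bladder *Olfm1* stood alone at the top, *Olfml1* ranked next and overlapped *Olfml2b*, and *Olfml3* ranked below *Olfml2a*, overlapping it.

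Other genes with an olfactomedin domain were read beside the 7. None of the 4 that were tested in each tissue passed between genotypes in limma, with 0 in colon and 2 in bladder at an unadjusted p under 0.05 (9.73% and 14.8% of all genes). *Myoc* ranged from 0.379 to 0.890 TPM in the Ctrl colons, from 0.511 to 1.96 TPM in the Y/T KO colons, from 10.8 to 25.6 TPM in the Ctrl bladders, and from 29.2 to 34.3 TPM in the Y/T KO bladders. Its bladder groups did not overlap, with a log2 difference of 0.80 (SE 0.32, limma adjusted p = 0.322), and it was lower in colon by -4.42 (SE 0.46, adjusted p = 1.03e-05) in Ctrl mice. For *Adgrl1* the Ctrl bladders had 23.7, 26.5, and 24.1 TPM and the Y/T KO bladders 19.2, 15.5, and 16.5 TPM, apart but not past the threshold (-0.54, SE 0.11, adjusted p = 0.132). In bladder 1 of the 4 was thus apart and higher and 1 apart and lower, against 10.6% and 11.4% of all genes. *Adgrl2* and *Adgrl3* overlapped between genotypes in both tissues, *Olfm3* and *Gldn* stayed below 0.5 TPM throughout, and *Olfm5*, added after the list was made, was listed at 0 in all 12 libraries.

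Binding partners and processing enzymes of the family were taken from a list of 20 genes, of which 11 were tested in colon and 16 in bladder. None passed the test between genotypes in limma, with 0 of 11 and 1 of 16 at an unadjusted p under 0.05 (9.73% and 14.8% of all genes), the latter being *Chrd*. *Bmp4*, the ligand bound by the product of *Olfml3*, had 66.7, 19.2, and 63.8 TPM in the Ctrl colons and 41.5, 16.2, and 37.2 TPM in the Y/T KO colons. *Bmp1*, a protease that cleaves chordin, had 22.8, 25.6, and 17.6 TPM in the former and 21.1, 28.7, and 27.4 TPM in the latter. Neither separated the genotypes, with log2 differences of -0.53 (SE 0.62, adjusted p = 0.796) for *Bmp4* and 0.27 (SE 0.18, adjusted p = 0.664) for *Bmp1*. *Chrd* itself, the BMP antagonist chordin, had 2.57, 3.48, and 2.71 TPM in the Ctrl colons and 3.35, 3.78, and 4.72 TPM in the Y/T KO colons (log2 difference 0.46, SE 0.23, adjusted p = 0.580). Its levels were 11.4, 12.1, and 13.5 TPM in the Ctrl bladders and 10.3, 5.62, and 7.75 TPM in the Y/T KO bladders (-0.67, SE 0.21, adjusted p = 0.227). On rescaled TPM the groups of *Chrd* were apart in both tissues, higher in Y/T KO in colon and lower in Y/T KO in bladder. It was 1 of 3 of the 11 listed genes apart and higher in colon, with *Flrt3* and *Tenm3*, against 8.23% of all genes. In bladder it was 1 of 2 of 16 apart and lower, with *Lingo1*, against 11.4% of all genes. The interaction of *Chrd* was 1.11 (SE 0.30, limma adjusted p = 0.226) and did not pass, nor did that of any other of the 16 listed genes tested. Of these 16, *Chrd* was the 1 with an unadjusted p under 0.05 in limma, against 11.9% of all genes.

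The genes whose log2 levels correlated most with each olfactomedin gene over the 12 libraries were named as a description, up to 3 for each. For *Olfml3* they were *Mir199a-1* (r = 0.93), *Tnc* (r = 0.90), and *Susd3* (r = 0.89). *Tnc*, the matrix protein tenascin-C, had 47.6, 48.9, and 49.0 TPM in the Ctrl colons and 99.6, 91.0, and 102 TPM in the Y/T KO colons. The Ctrl bladders had 81.3, 132, and 129 TPM of *Tnc* and the Y/T KO bladders 83.3, 87.8, and 56.5 TPM. *Tnc* followed *Olfml3* in the high Y/T KO colon, in both high Ctrl bladders, and in the low Ctrl bladder 784. With group means removed the correlation was 0.81, against 0.34 for *Mir199a-1* and 0.45 for *Susd3*. These genes were picked by their correlation over the same libraries, so the values with group means removed are not independent of that choice. Ctrl bladder 784 lay far from the other Ctrl bladders in *Olfml3* and *Tnc*, and the correlation without it was not taken. *Susd3* ranged from 0.427 to 1.27 TPM in the Ctrl colons and from 2.01 to 2.86 TPM in the Y/T KO colons. *Mir199a-1*, the hairpin gene of a microRNA, was listed at 0 in all 3 Ctrl colon libraries and at 0.619 to 0.790 TPM in Y/T KO colon.

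For the other genes the nearest patterns correlated more highly and, like those genes, were lower in colon than in bladder. They were *Pcyox1* and *Snn* for *Olfml1* (r = 0.99 each), *Art4*, *Zfp872*, and *Gm2762* for *Olfml2a* (0.99 each), *Rbp4* and *D630045J12Rik* for *Olfml2b* (0.97 each), *Adarb1*, *Cpxm2*, and *Cacna2d3* for *Olfm1* (0.98, 0.97, and 0.97), and *Matn2*, *Kcnk3*, and *Htra3* for *Olfm2* (0.99 each). Among the olfactomedin genes themselves, *Olfml3* had the lowest correlations with the others, from 0.31 with *Olfml2b* to 0.55 with *Olfm1*, while pairs without it ran from 0.86 to 0.99. These correlations include the difference between tissues. With group means removed, pairs without *Olfml3* ran from -0.22 (*Olfml2a* with *Olfml2b*) to 0.83 (*Olfml1* with *Olfml2a*). Pairs with *Olfml3* then ran from -0.64 with *Olfml2b* to 0.32 with *Olfml2a*.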

How the data were processed

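RNA of whole distal colon and urinary bladder was sequenced from stranded mRNA libraries. According to the labels and their processing notes, the authors aligned reads with HISAT2 to GRCm38 and estimated expression with StringTie. The deposited tables give for each gene the TPM, the FPKM, and the coverage (mean reads per base), all made by the authors. DESeq2, which they used, needs counts, which were not used here. Rows were summed by gene identifier. Coordinates of 98.0% of 54532 genes equalled those of GENCODE M21. Depth was taken from the ratio of coverage to FPKM, and the counting error of single values was not estimated. The 7 genes and all lists were chosen with earlier results of these data known. TPM was divided by median-of-ratios size factors (0.966 to 1.11 within a tissue), genes were kept if 3 or more libraries of the fit reached 0.5 TPM, and log2(TPM + 0.1) was fitted with limma 3.58.1 in R 4.3.3 (trend and robust options, two-sided, Benjamini-Hochberg over all genes). Genotypes were compared within each tissue, and tissues and the interaction in 1 fit of 12 libraries. Named genes were the 7, the other olfactomedin-domain genes, the floxed genes, the 3 nearest patterns of each (some are not reported here), and members of lists of partners, crypt and defence genes, and cell markers. The same mouse number marks the same animal, so colon and bladder are paired for 3 mice. Deviations from group means correlated by 0.034 on average in the same mouse (3 pairs) and by -0.0068 in different mice (15 pairs), and the mouse was used as a block in an alternative fit. Other alternatives were pseudocounts of 0.5 and 1, other filters, FPKM, TPM as deposited, limma without its options, an adjusted p of 0.1, and leaving out each library. Promoters were those of RefSeq (GRCm38.p6). Python 3.11.15, pandas 2.3.3, and matplotlib 3.10.9 were used, and the fits were tested on simulated data.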

Additional observations from a re-analysis of the deposited data

Results flagged for a closer look

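The genotype difference of *Olfml3* was flagged because it differed between colon and bladder by the test of that difference itself, an interaction of 3.44 on the log2 scale (SE 0.50, limma adjusted p = 0.0424), with all 3 Y/T KO colon libraries above all 3 Ctrl colon libraries and 2 of 3 Ctrl bladder libraries above all 3 Y/T KO bladder libraries.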

How the results depend on the processing

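The rise of *Olfml3* in Y/T KO colon stayed past the threshold under every alternative run, with an adjusted p of at most 0.0499 (without Y/T KO colon 783) and a log2 difference of 2.26 to 2.62, and 0 of the tested genes passed between genotypes in bladder under any of them. With all libraries kept, 42 of 45 counts of genes past the threshold were unchanged. The exceptions were the interaction count, which fell from 1 to 0 without the filter on low values, on TPM as deposited, and without the trend and robust options, and the cause was not tested. With libraries left out in turn, this count ran from 0 to 1, and the count of genes differing between tissues in Y/T KO mice ran from 5 to 6. With the mouse as a replicate block, the *Olfml3* interaction was 3.45 (limma adjusted p = 0.0353), and the pairing changed no call. Single estimates changed sign only where libraries were left out and only for differences that passed no test. Between genotypes in colon they ran from -0.19 to 0.11 for *Olfml1*, -0.090 to 0.0044 for *Olfml2b*, -0.32 to 0.035 for *Adgrl2*, and -0.52 to 0.15 for *Adgrl3*, and in bladder from -0.24 to 0.084 for *Olfml2b*. Interaction estimates ran from -0.091 to 0.23 for *Olfml2a*, -0.15 to 0.17 for *Olfml2b*, -0.046 to 0.22 for *Olfm2*, -0.59 to 0.29 for *Myoc*, -0.19 to 0.18 for *Adgrl2*, and -0.22 to 0.47 for *Adgrl3*. With 3 libraries per group and no read counts, small differences of low genes such as *Olfm2* and *Olfm4* could not be resolved.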
